A study of Homo sapiens with 12 samples.

Results

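Platelet-derived growth factors (PDGFs) signal through receptor tyrosine kinases, and 8 genes of this system, read by 11 of the 50599 probes on the array, are described here in a colorectal cancer cell line with and without depletion of the DNA demethylase TET1. The genes were taken by name: every probe that the array design assigns to PDGFRB, PDGFRA, KIT, CSF1R, PDGFA, PDGFB, PDGFC or PDGFD was used, with 3 probes for KIT, 2 for PDGFA and 1 for each of the others. Of the 8 genes, KIT and PDGFC were well above background on all 12 arrays. The mean of PDGFRB was lowest in the mock-treated knockdown clones, and CSF1R was higher after 5-aza-2'-deoxycytidine (5-aza-dC) in all 6 clones. No member passed the test after adjustment over all probes in the 5 comparisons the design gives (0 called by limma, where between 0.0366% and 5.22% of all tested probes were), with the counts for each comparison given below. The calls changed with the clone as a block, which pairs the mock and treated arrays of a clone. CSF1R was then called in control clones (adjusted p = 0.0369, limma) and PDGFRB in knockdown clones (adjusted p = 0.0451). With slide as a second block CSF1R was no longer called, whereas PDGFRB was. These calls depend on the model and are not read as results about the members.

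PDGFRα and PDGFRβ, the products of PDGFRA and PDGFRB, are cell surface tyrosine kinases that dimerise when a PDGF dimer binds, phosphorylate their own tails and recruit adaptors such as GRB2 and the phosphoinositide 3-kinase regulatory subunit. KIT, the receptor of stem cell factor, and CSF1R, the receptor of colony stimulating factor 1 and interleukin-34, belong to the same receptor family. In the normal bowel wall PDGFRB marks pericytes and fibroblasts, KIT marks interstitial cells of Cajal and mast cells, and CSF1R marks macrophages. PDGFA and PDGFB are the classical ligands, whereas PDGFC and PDGFD are made as latent dimers that a protease must cut.

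Colo320DM is an established human colorectal cancer line. Clones were grown from colonies that stably carried either a TET1 knockdown vector, from which artificial microRNAs against TET1 are made, or the negative control plasmid, and all 12 samples therefore share G418 selection and a plasmid with a green fluorescent marker. There were 3 control clones and 3 knockdown clones, each hybridised once as a mock-treated culture and once after 1 µM 5-aza-dC, an inhibitor of DNA methyltransferases, for 72 h. A clone is 1 colony. Knockdown clones 1 and 2 carried the same artificial microRNA against TET1 and knockdown clone 3 a different one. The p-values measure the spread between these clones. Unless the clone is named as a block, the limma fits did not pair the mock and treated arrays of a clone. The fit of the difference between responses then treats the 12 arrays of 6 clones as independent. Levels are given as log2 signal minus the 75th percentile of the array, so that a probe at 0 has the signal of that percentile.

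The promoters of the 3 receptors that could be tested are shown first, because 5-aza-dC blocks the methylation of CG pairs and these windows differ in how many they hold. Each sequence is the 250 bases before a RefSeq transcription start on build GRCh38.p14, 5′ to 3′ on the coding strand, with CG pairs in capitals. CSF1R has 2 such starts in the table.

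PDGFRB, chr5:150155846-150156095, minus strand: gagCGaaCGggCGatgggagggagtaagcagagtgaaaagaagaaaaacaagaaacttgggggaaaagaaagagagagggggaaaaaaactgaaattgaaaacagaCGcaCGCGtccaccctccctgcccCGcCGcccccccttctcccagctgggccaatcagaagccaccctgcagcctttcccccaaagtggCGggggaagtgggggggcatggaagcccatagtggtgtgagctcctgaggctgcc
CSF1R upstream start, chr5:150113366-150113615, minus strand: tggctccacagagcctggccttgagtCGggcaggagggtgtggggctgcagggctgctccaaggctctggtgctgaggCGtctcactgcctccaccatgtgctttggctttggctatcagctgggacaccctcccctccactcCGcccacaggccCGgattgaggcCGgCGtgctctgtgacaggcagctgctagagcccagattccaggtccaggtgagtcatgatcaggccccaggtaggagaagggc
CSF1R downstream start, chr5:150086555-150086804, minus strand: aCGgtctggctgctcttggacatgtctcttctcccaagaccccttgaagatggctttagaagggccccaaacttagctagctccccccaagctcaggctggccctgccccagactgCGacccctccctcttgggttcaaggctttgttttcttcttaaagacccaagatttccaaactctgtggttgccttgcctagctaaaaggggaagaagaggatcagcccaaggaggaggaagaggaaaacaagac
KIT, chr4:54657707-54657956, plus strand: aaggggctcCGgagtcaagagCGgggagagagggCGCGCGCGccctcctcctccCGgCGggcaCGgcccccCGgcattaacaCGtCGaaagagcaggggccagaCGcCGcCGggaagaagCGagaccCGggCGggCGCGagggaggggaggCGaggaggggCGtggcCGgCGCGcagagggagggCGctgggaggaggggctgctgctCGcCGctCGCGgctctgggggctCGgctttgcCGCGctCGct

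The KIT window held 34 CG pairs, a number that 6.84% of 35114 such windows reach or pass. The PDGFRB window held 9, and the CSF1R windows held 6 at the upstream and 2 at the downstream start, against a median of 11 over all windows. The letters CCAAT, searched on both strands, occurred 1 time in the PDGFRB window and not in the KIT or CSF1R windows, and 32.0% of all windows hold them. The letters TATAAA, also searched on both strands, occurred in none of these 4 windows and in 10.7% of all windows. DNA methylation is not measured on these arrays, and the counts describe sequence only. Of the 8 genes, 6 had a promoter entry, and PDGFB and PDGFC had none.

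CSF1R and PDGFRB are direct neighbours on chromosome 5, where 473 bases separate the end of PDGFRB from the start of CSF1R on GRCh38.p14. KIT and PDGFRA lie on chromosome 4 with no protein-coding gene between them. On build hg19, which the array design uses, the PDGFRB probe lies at chr5:149493464-149493523 and the CSF1R probe at chr5:149432861-149432920, both on the minus strand. The KIT probe with the highest signal lies at chr4:55606511-55606570 and the PDGFC probe at chr4:157682899-157682958.

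Signal over the whole array was similar between samples. The 75th percentile signal ranged from 361 to 542, between 45.7% and 52.9% of probes were well above background, and no spot was saturated. The arrays came from 2 slides: slide 2 carried all 3 control clones after 5-aza-dC, knockdown clone 2 after 5-aza-dC and control clone 3 in mock culture, and slide 1 carried the remaining 7. At the brightest of the 3 TET1 probes, the mock control clones read 4.56, 4.23 and 4.67 and the mock knockdown clones 3.59, 3.51 and 3.57. At this probe TET1 was lower in each mock knockdown clone than in each mock control clone (p = 0.1 by a two-sided exact permutation test, the lowest value possible with 3 against 3). After 5-aza-dC the control clones read 4.06, 4.42 and 4.16 and the knockdown clones 2.98, 4.31 and 3.35, and knockdown clone 2 lay within the range of the control clones at this probe (p = 0.3, exact permutation test). The difference at the other 2 TET1 probes was -1.35 and -1.08 in mock culture and -1.75 and -1.07 after 5-aza-dC. Groups separated at both after 5-aza-dC, knockdown clone 2 included (p = 0.1 each, exact permutation test), whereas in mock culture they separated at the first (p = 0.1, exact permutation test) and overlapped at the second (p = 0.2), where knockdown clone 1 read -1.140 and control clone 3 -1.146. Of 8 markers of colorectal epithelium, KRT8, KRT18, KRT20 and CDX2 were well above background on all 12 arrays. EPCAM was on 10, KRT19 on the 6 treated arrays only, VIL1 on 1, and CDH1, which codes for E-cadherin, on none.

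Detection divided the 8 genes. PDGFC and the brightest KIT probe were well above background on all 12 arrays, PDGFRB on 10 and CSF1R on 9. PDGFA passed on 3 arrays at the better of its 2 probes, and PDGFRA on 1, treated knockdown clone 3. PDGFB and PDGFD were not well above background on any array. Thus the receptor for stem cell factor and a latent PDGF ligand were detected in all samples, whereas PDGFRA, whose product binds PDGF-AA and PDGF-CC, was not well above background on 11 of 12 arrays.

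**Figure D1:**
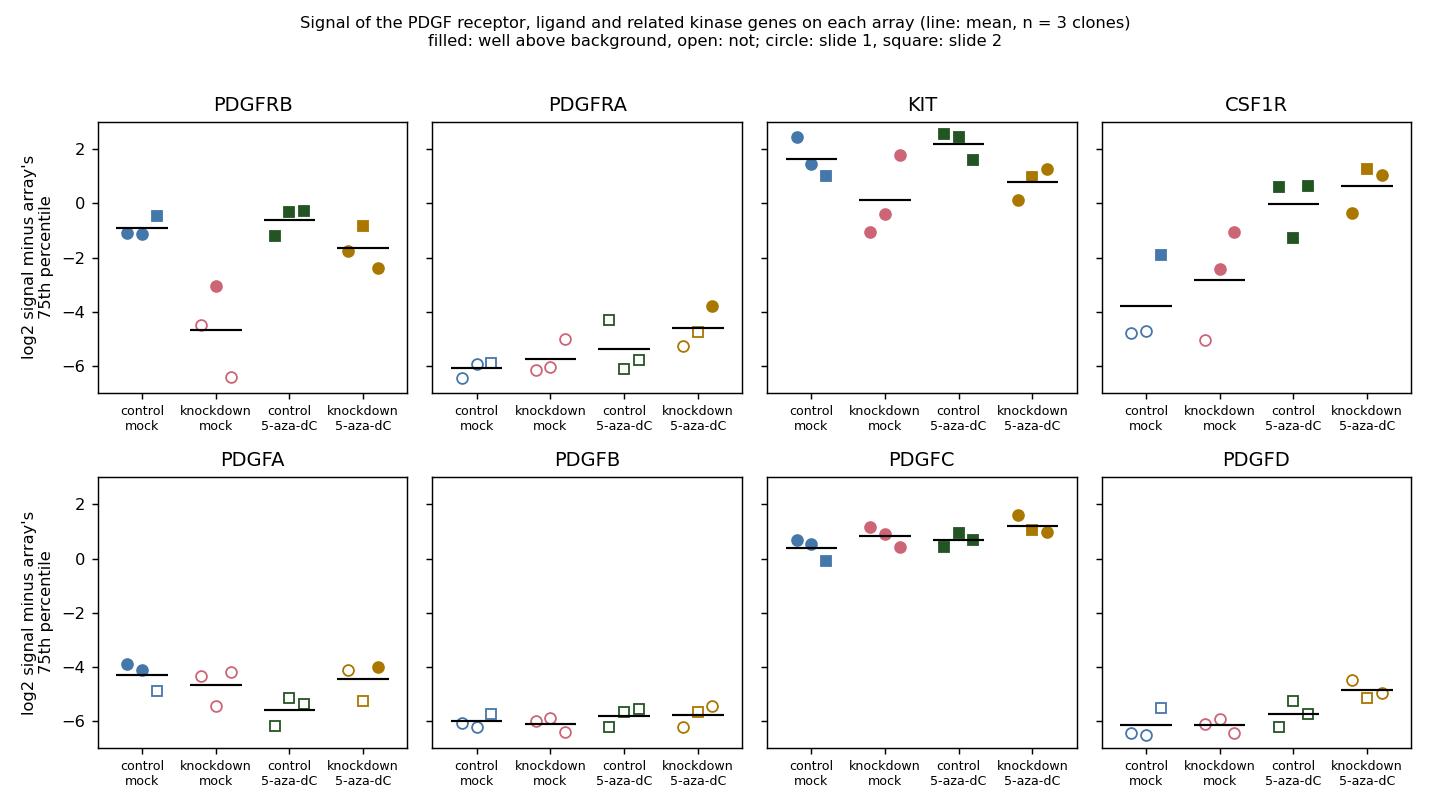
Log2 signal minus the array's 75th percentile (vertical axis) for the brightest probe of each of the 8 genes in the 4 groups, with 1 point for each of 3 clones and a line at the group mean. Filled points were well above background, and circles and squares stand for slides 1 and 2. PDGFC and KIT are filled throughout, PDGFB and PDGFD are open throughout, and PDGFRB averages -4.65 in the mock knockdown clones.

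PDGFRB, the receptor that binds PDGF-BB most tightly, showed the largest difference between clone types among the 4 members tested in mock culture. In mock culture the 3 control clones read -1.08, -1.14 and -0.46, and the 3 knockdown clones -4.50, -3.05 and -6.41. The groups did not overlap, and knockdown clones 1 and 3 were not well above background, so that PDGFRB was measured in 1 of 3 mock knockdown clones. The mean difference was -3.76 on the log2 scale (SE 0.80, 95% interval -5.68 to -1.84), a size that rests on 2 arrays without a signal well above background. With limma this gave an unadjusted p of 0.0027 and an adjusted p of 0.289 over 24752 probes, and PDGFRB ranked 230 by p. PDGFRB is a gene that the study singled out from these arrays together with methylation arrays, so the mock comparison is not independent evidence for it. The paper also reports bisulfite sequencing and RT-qPCR of PDGFRB, which were not examined here. Of 9 pericyte and fibroblast markers, RGS5, CSPG4, DES and COL1A1 were well above background on all arrays. LUM was on 11, ACTA2 on 6, THY1 on 3, DCN on 1 and COL1A2 on none. The summed level of the 9, in units of the array's 75th percentile, overlapped between the mock clone types (2.26 to 3.70 in control and 1.75 to 4.95 in knockdown clones). On slide 1 alone, with 2 control and 3 knockdown arrays, the PDGFRB difference was -3.54. With normexp background correction and quantile normalization, which raises low signals, it was -1.50.

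After 5-aza-dC, PDGFRB was well above background in all 6 clones. The treated control clones read -1.21, -0.31 and -0.30 and the treated knockdown clones -1.77, -0.83 and -2.39. The ranges overlapped through knockdown clone 2, whose array was the only treated knockdown array on slide 2. The difference was -1.05 (SE 0.46, adjusted p = 0.267, limma), and on slide 2 alone it was -0.22, with 1 knockdown array against 3. Without knockdown clone 2 it was -1.47 with an adjusted p of 0.0319, but in that fit all control arrays are on slide 2 and all knockdown arrays on slide 1, so that slide and clone type cannot be told apart.

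Within clones, the PDGFRB response to 5-aza-dC, treated minus mock, was 2.73, 2.22 and 4.03 in knockdown clones 1, 2 and 3 and -0.13, 0.83 and 0.17 in control clones 1, 2 and 3. The lowest knockdown response was thus above the highest control response (p = 0.1, exact permutation test, the lowest value possible). How many of all probes separate in this way was not counted, and the PDGFA responses, near the limit of the array, did too. The arrays of control clones 1 and 2 and of knockdown clone 2 lay on different slides. In the knockdown clones the mean was 2.99 (SE 0.86, adjusted p = 0.289, limma), and with the clone as a block, which compares each clone with itself, the adjusted p was 0.0451 (0.0457 with slide as a second block). In the control clones the mean was 0.29 (SE 0.33, adjusted p = 0.589), and its sign turned on slide 2 alone (-0.15). The difference between the responses was 2.71 (SE 1.02, 95% interval 0.45 to 4.96), with an unadjusted p of 0.023 and an adjusted p of 0.9995 over 27287 probes. Hence the test does not show that the clone types responded differently. The knockdown response and this difference subtract the mock readings by which the study singled out PDGFRB. Their p-values, with or without the clone as a block, are therefore not independent evidence for PDGFRB. Knockdown clones 1 and 3, not well above background in mock culture, were so after treatment. A response from such a low signal depends on the background correction (normexp with quantile normalization gave 0.98 for the mean in knockdown clones).

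PDGFRA, which codes for the receptor of PDGF-AA and PDGF-CC among others, ranged from -6.45 to -3.78 over the 12 arrays and was not tested in any comparison. Its highest reading, in treated knockdown clone 3, was the only one well above background. The medians of the mock control, mock knockdown, treated control and treated knockdown clones were -5.91, -6.02, -5.76 and -4.74. No fold is given, since only 1 of the 12 readings was well above background.

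KIT, the receptor for stem cell factor, was well above background in every sample. At its brightest probe the mock control clones read 2.46, 1.46 and 1.02, and the mock knockdown clones -1.05, -0.39 and 1.77. Knockdown clones 1 and 2 were below each control clone, whereas knockdown clone 3 was above control clones 2 and 3. The difference of -1.54 (SE 0.77) had an adjusted p of 0.499 by limma. After 5-aza-dC the control clones read 2.54, 2.43 and 1.61 and the knockdown clones 0.14, 0.96 and 1.28. These groups did not overlap, with a difference of -1.40 (SE 0.39, 95% interval -2.33 to -0.47, adjusted p = 0.192). On slide 2 alone the difference was -1.24. Of 4 mast cell markers, TPSAB1 and MS4A2 were not well above background on any array, CPA3 was on 7 and HDC on all. Their summed level, in units of the array's 75th percentile, was 203 to 253 in mock control clones and 35.8 to 194 in mock knockdown clones. On the log2 scale HDC averaged 7.79 and 6.59 in these groups and CPA3, the next highest, -3.84 and -4.08. The sum therefore follows HDC. The cultures were clones of a cancer line, so it reads HDC expression and no share of mast cells. A link of HDC to the KIT values was not tested.

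A second KIT probe, at chr4:55569965-55570024, was well above background on 11 arrays and gave nearly the same differences, -1.52 in mock culture and -1.41 after 5-aza-dC, with adjusted p-values of 0.567 and 0.2003. Across the 12 arrays these 2 probes had a Pearson r of 0.96, as a description of probes that share samples. The third, at chr4:55593626-55593685, was well above background on 2 arrays, mock control clone 1 and mock knockdown clone 3. These were also the mock arrays with the highest KIT signal in their groups at the other 2 probes. The response of KIT to 5-aza-dC was 0.08, 0.98 and 0.59 in the control clones and 1.19, 1.35 and -0.49 in the knockdown clones. Neither mean passed the test (0.55 and 0.68, adjusted p = 0.434 and 0.788), and the difference between the responses was 0.13 (95% interval -1.96 to 2.23).

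CSF1R, the macrophage colony stimulating factor receptor, was low in mock culture and higher after 5-aza-dC in 6 of 6 clones. The mock control clones read -4.78, -4.69 and -1.90, with clone 3 alone well above background, and after treatment they read 0.60, -1.26 and 0.64. The mock knockdown clones read -5.05, -2.41 and -1.04, with clones 2 and 3 well above background, and after treatment -0.36, 1.27 and 1.04. Every treated array of a clone type was above every mock array of that type. The mean increase was 3.78 in control clones (SE 0.91, 95% interval 1.59 to 5.97, adjusted p = 0.0705, limma) and 3.48 in knockdown clones (SE 1.02, 95% interval 1.02 to 5.94, adjusted p = 0.305). Since 3 of the 6 mock arrays were not well above background, these sizes depend on the background correction, and normexp with quantile normalization gave 1.96 and 2.11. On the slide that held both groups they were 1.90, with 1 mock array, and 3.17.

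With the clone as a block, the adjusted p for CSF1R was 0.0369 in the control clones and 0.0689 in the knockdown clones. With slide as a second block these became 0.305 and 0.129. Without mock control clone 3 it was 0.00696, but all mock control arrays then lie on slide 1 and all treated ones on slide 2. The clones whose arrays both lay on 1 slide allow a comparison free of this overlap: the increase was 2.54 in control clone 3, 4.69 in knockdown clone 1 and 2.08 in knockdown clone 3. In the other 3 clones, whose arrays were on different slides, it was 5.38, 3.43 and 3.68. Of 5 macrophage markers on the array, CD14 and TYROBP were well above background throughout, CD68 on 7 arrays, AIF1 on 2 and CD163 on none. Their summed level was 0.50 to 0.87 in mock and 0.68 to 0.97 in treated control clones. In knockdown clones it was 0.39 to 0.44 in mock and 0.61 to 0.84 in treated cultures, without overlap, where 19.2% of all tested probes did not overlap. The cultures were clones of a cancer line, so the sum reads these genes and no share of macrophages. A link to the CSF1R values was not tested.

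Since CSF1R moved one way in each clone, the mean response over all 6 clones was also fitted on the 12 arrays, a comparison chosen after these values were seen. It was 3.63 (SE 0.76, 95% interval 1.95 to 5.31, adjusted p = 0.0121, limma), in a fit that called 13.2% of 27293 probes and 1 of 5 tested members. This fit did not pair the arrays of a clone. The adjusted p was 0.0052 with the clone as a block, 0.0629 with clone and slide as blocks and 0.0797 without control clone 1. In the same fit PDGFRB had a mean of 1.64 (SE 0.51, adjusted p = 0.058, higher in 5 of 6 clones), and 0.0113 with the clone as a block. For CSF1R an exact sign-flip test on the 6 clone responses gave p = 0.031, the lowest value possible. After Benjamini-Hochberg adjustment over the 5 tested members it was 0.117. Since the CSF1R values prompted this comparison, its p-values are not independent evidence for CSF1R. The same holds for PDGFRB, whose mock readings are those by which the study singled it out. TET1 knockdown itself left CSF1R with wide intervals: 0.96 in mock culture (95% interval -1.92 to 3.83) and 0.66 after 5-aza-dC (-0.90 to 2.21). The difference between the responses of the clone types was -0.30 (95% interval -3.65 to 3.06), and its sign turned under 8 of 21 alternatives.

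**Figure D2:**
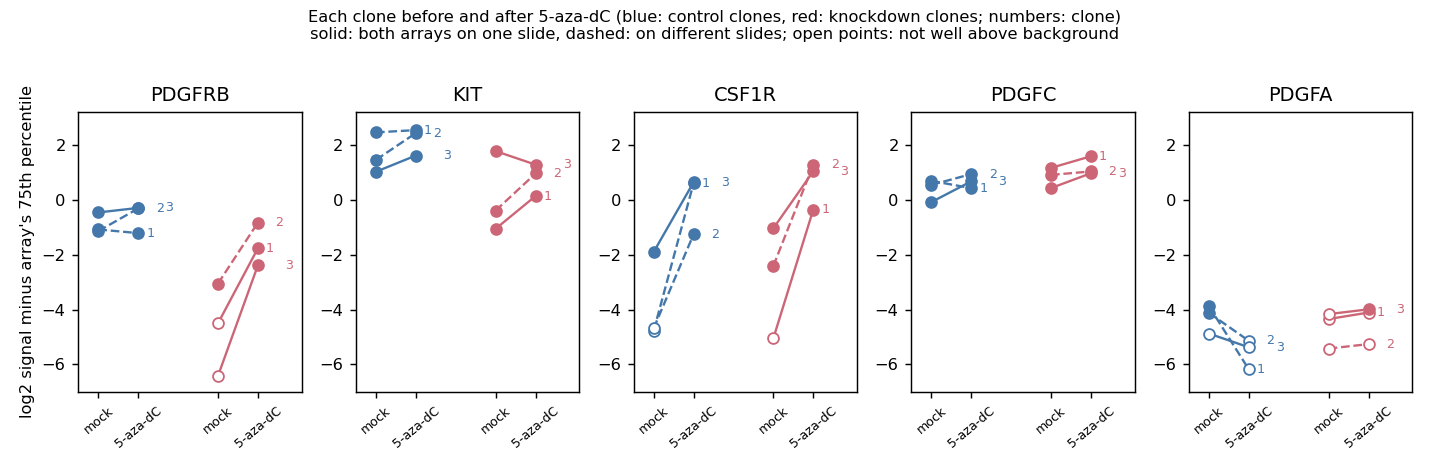
Log2 signal minus the array's 75th percentile for each clone before and after 5-aza-dC, with control clones in blue and knockdown clones in red, at the brightest probe of 5 genes. Solid lines join arrays of 1 slide and dashed lines arrays of different slides, and open points were not well above background. CSF1R is higher after treatment in all 6 clones, by 2.08 to 5.38, and PDGFRB is in the 3 knockdown clones, by 2.22 to 4.03.

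PDGFC, the latent ligand that binds PDGFRα once cut, spanned 1.67 on the log2 scale over the 12 arrays, the narrowest range of the 4 genes tested in each comparison. It read 0.69, 0.54 and -0.08 in the mock control clones, 1.16, 0.91 and 0.43 in the mock knockdown clones, 0.42, 0.94 and 0.67 in the treated control clones and 1.59, 1.03 and 0.97 in the treated knockdown clones. After 5-aza-dC each knockdown clone was above each control clone, by 0.52 on average (SE 0.26, 95% interval -0.10 to 1.13, adjusted p = 0.308, limma). In mock culture the groups overlapped and the difference was 0.45 (SE 0.30, adjusted p = 0.572). The responses to 5-aza-dC averaged 0.29 in the control and 0.36 in the knockdown clones, and neither passed the test.

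PDGFA, which codes for the A chain, was near the limit of the array. The better of its 2 probes, at chr7:557032-557091, was well above background in mock control clones 1 and 2 and in treated knockdown clone 3. The mock control clones read -3.88, -4.12 and -4.87 and the treated control clones -6.18, -5.14 and -5.37, so that each treated array was below each mock array. The mock knockdown clones read -4.34, -5.42 and -4.16 and the treated ones -4.11, -5.26 and -3.99, a change of 0.16 to 0.24 in each clone. PDGFA was tested only for the difference between these responses, which was 1.47 (SE 0.65, unadjusted p = 0.0475, adjusted p = 0.9995, limma). Its other probe, at chr7:536929-536988, stayed below that level on every array and read between -6.60 and -5.74.

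PDGFB, at chr22:39620099-39620158, read between -6.40 and -5.44, and PDGFD, at chr11:103778386-103778445, between -6.52 and -4.49, without a reading well above background. The 3 highest PDGFD readings were those of the 3 treated knockdown clones, -4.49, -5.13 and -4.95, none well above background. Neither gene was tested.

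Counted together, 4 of the 8 genes could be tested in each comparison of 2 groups, PDGFRB, KIT, CSF1R and PDGFC, and 5 in the comparison of responses. By limma with Benjamini-Hochberg adjustment over all probes 0 were called in each of the 5. The share of all tested probes called was 0.137% for knockdown against control in mock culture, 0.096% after 5-aza-dC, 5.22% for 5-aza-dC in control clones, 2.04% in knockdown clones and 0.0366% for the difference between responses. At an unadjusted p under 0.05 the counts of members were 1, 1, 1, 2 and 2, in the same order, where 11.2%, 19.3%, 26.5%, 9.15% and 2.47% of all tested probes passed. The methods' t-test with the same adjustment also called 0 members in each of the 4 comparisons it can make, and passed 1 in each without adjustment.

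Groups did not overlap for 1 tested member in mock culture (PDGFRB) and 2 after 5-aza-dC (KIT and PDGFC), where 21.4% and 25% of all tested probes did not overlap. For the response to 5-aza-dC the counts were 1 in control clones (CSF1R) and 2 in knockdown clones (PDGFRB and CSF1R), where the shares of all probes were 32.5% and 19.2%. With 4 members tested, these counts are not read as a result about the set. The median log2 difference of the tested members was -0.54, -0.27, 0.42 and 1.84 in these 4 comparisons, beside 0.04, -0.01, -0.02 and -0.09 for all probes.

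**Figure D3:**
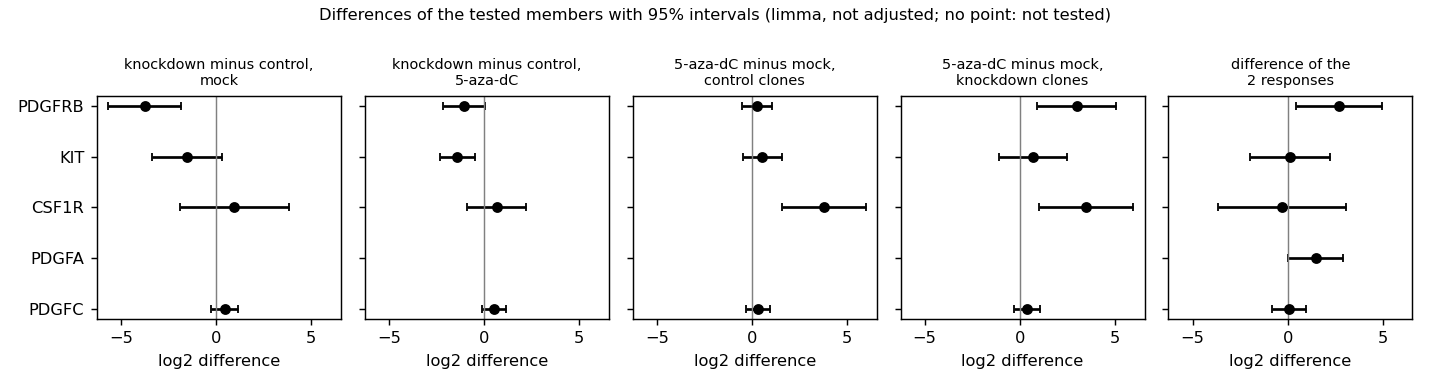
Log2 differences of the tested members (horizontal axis) with 95% intervals from limma, not adjusted, in the 5 comparisons, where a missing point means not tested. From left to right, the intervals that leave out 0 are those of PDGFRB, of KIT, of CSF1R, of PDGFRB and CSF1R, and of PDGFRB and PDGFA, and those of PDGFC span 0 in each panel.

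Of the genes listed as acting with the receptors, 1 was called. Of 14 further ligands, receptors and processing proteins, 9 were tested for 5-aza-dC in control clones and 8 in knockdown clones. PLAT was called in both, as the only one, where 5.22% and 2.04% of all tested probes were called. With so few genes tested, this count is not read as a result about the list. PLAT codes for tissue plasminogen activator, a protease known to cut and activate PDGF-CC. On the 6 mock arrays it was not well above background, at -6.45 to -5.18 in the control and -6.02 to -5.81 in the knockdown clones. On the 6 treated arrays it was, at -1.53 to -1.15 and -2.72 to -1.25. In control clones the treated mean was 6.79-fold the lowest signal that counts as well above background on the mock arrays. In knockdown clones it was 3.87-fold that signal, both in this scaling. The fitted differences were 4.44 (SE 0.33, adjusted p = 0.0015, limma) and 3.92 (SE 0.38, adjusted p = 0.0033), and the difference between them was -0.52 (SE 0.54, adjusted p = 0.9995). PLAT met the filter for a test only through its 3 treated arrays in each clone type. A rise was thus favoured before the test, and these p-values are not read as support for it. The fitted differences start from a mock signal that was not well above background. With normexp and quantile normalization they were 1.43 and 1.13 on the log2 scale. This is a smaller rise than either fold above, so the folds are no lower bounds. The call in control clones was lost with clone and slide as blocks (adjusted p = 0.0818), and that in knockdown clones with normexp (0.111) or the methods' t-test (0.0715). PLAU, a related plasminogen activator, was well above background on all 12 arrays and was not called in any comparison.

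The ligands of the other receptors were measured as well. KITLG, which codes for stem cell factor, and CSF1, a ligand of CSF1R, were well above background on all 12 arrays, and IL34, the other CSF1R ligand, on none. In mock culture the difference between clone types was 0.05 (SE 0.19, adjusted p = 0.915) for KITLG and -0.21 (SE 0.22, adjusted p = 0.687) for CSF1. Hence mRNAs of both KIT and its ligand were detected on each array, whereas CSF1R passed background beside its ligand CSF1 on 9.

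All 17 genes of the intracellular signalling list, from GRB2 and SHC1 to AKT1 and MAPK3, were tested and 0 were called in any of the 5 comparisons by limma. At an unadjusted p under 0.05 there were 2, 3, 5, 1 and 0, where 11.2%, 19.3%, 26.5%, 9.15% and 2.47% of all tested probes passed. The medians over the list were -0.021 in mock culture, -0.0091 after 5-aza-dC, -0.36 for 5-aza-dC in control clones and -0.13 in knockdown clones. Over all tested probes the medians were 0.040, -0.012, -0.015 and -0.089, in the same order. The largest differences in mock culture were those of MAPK3, which codes for the kinase ERK1 (0.54, SE 0.20), STAT3 (-0.47, SE 0.17), the adaptor GAB1 (-0.44, SE 0.32), AKT1 (-0.37, SE 0.33) and SRC (-0.35, SE 0.22), with adjusted p-values between 0.415 and 0.647.

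**Figure D4:**
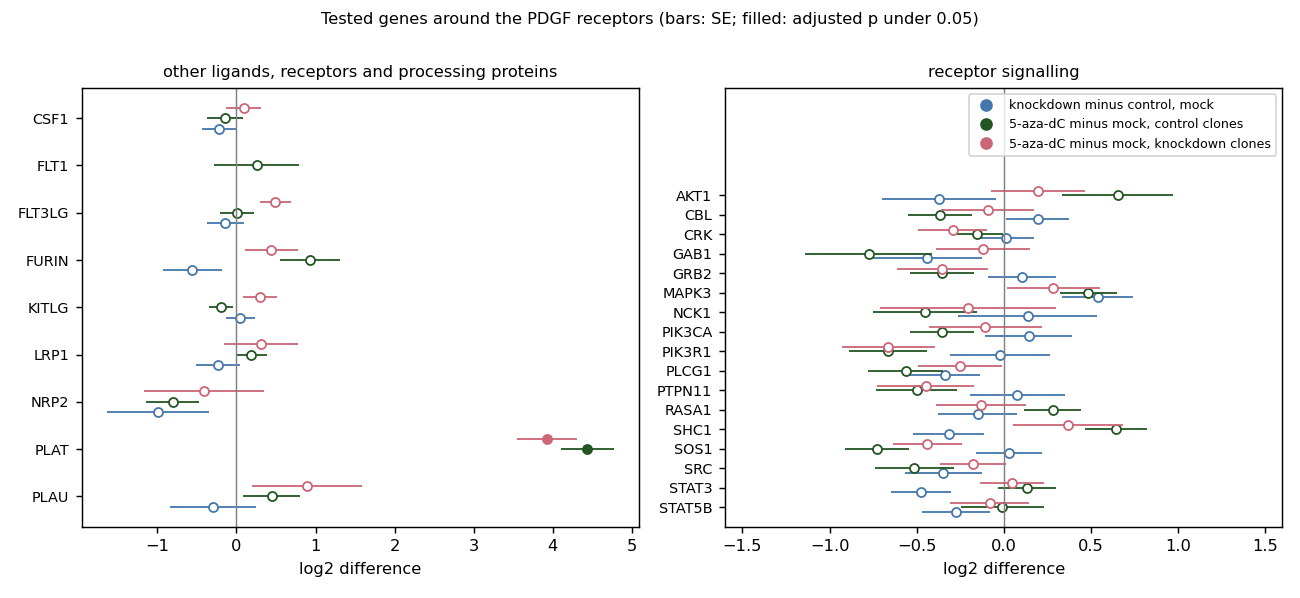
Log2 differences (horizontal axis) of the tested genes of both lists, with bars for the SE, for knockdown minus control in mock culture and for 5-aza-dC minus mock in each clone type. Filled points had an adjusted p under 0.05, and PLAT, at 4.44 and 3.92, has the only ones.

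Genes near the members on the chromosome were read as well. HMGXB3, whose probe lies 0.212 kb from that of CSF1R, was well above background on all 12 arrays and differed by -0.33 (SE 0.19, adjusted p = 0.287) after 5-aza-dC in control clones. CDX1, on the other side of PDGFRB at 69.7 kb between probes, differed by 0.04 (adjusted p = 0.959) between clone types in mock culture. TIGD6, at 120 kb from the PDGFRB probe, had a difference of -1.88 between mock clone types (SE 0.65, adjusted p = 0.411). PDGFRB and CSF1R themselves, with probes 60.5 kb apart, had a Pearson r of 0.20 over the 12 arrays. Of the neighbour probes within 300 kb of any member, 1 of 40 tested was called for 5-aza-dC in control clones, where 5.22% of all probes were. It reads the small nucleolar RNA SNORD83A, 91.1 kb from PDGFB (difference -0.82, adjusted p = 0.0351).

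The genes whose level followed PDGFRB most closely over the 12 arrays were C10orf125 (r = 0.96), P2RY2 (r = 0.94), SLC25A43 (r = 0.93), CAND2 (r = 0.93) and FAM127B (r = 0.92), the highest of 14906 genes. These are descriptions over 12 arrays from 6 clones.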

How the data were processed

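RNA of 12 cultures was hybridised in 1 colour (Cy3) to an Agilent human expression array, and the authors extracted spot intensity values with Agilent Feature Extraction 10.7, which subtracts and detrends the background. The deposited intensity (processed signal) was the starting point, and log2 values were computed here from the deposited intensity, not by the authors. Control spots and outlier spots were left out, spots of a probe were averaged on the log2 scale, and each array was centred on its 75th percentile. A probe counts as well above background on an array where Feature Extraction says so for at least 50% of its spots, and it was tested where this held on at least 3 arrays of the fit. Differences were fitted in limma 3.58.1 (R 4.3.3) across all tested probes, with Benjamini-Hochberg adjustment and a threshold of 0.05, and the code was tested on simulated data. Comparisons between 2 groups used the arrays of those groups only, and the difference of responses used all 12. Intervals are at 95%, and the number of arrays limits the precision. The brightest probe stands for a gene.

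Samples were grouped by their labels. Clone numbers pair the mock and treated arrays of a clone (correlation of deviations 0.213 to 0.316 in control and 0.431 to 0.525 in knockdown clones). Alternatives were another scaling, normexp background correction with an offset of 50, another filter, slide and clone as blocks, the methods' t-test and leaving out each array. The members and gene lists were chosen with earlier results of these data known. 1 gene of the signalling list is not reported here. Genes named beside the members are the lists' members, neighbours within 300 kb and the 5 most correlated with PDGFRB. Promoter sequences are from RefSeq on GRCh38.p14, and array positions are on hg19.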

Additional observations from a re-analysis of the deposited data

How the results depend on the processing

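No member was called between mock clone types or for the difference of responses under any alternative that could be fitted. With the replicate block, which pairs the arrays of a clone, 1 member was called for 5-aza-dC in control clones (CSF1R) and 1 in knockdown clones (PDGFRB), and with slide as a second block 0 and 1. Over all 6 clones, where 1 member was called, the count was 0 with slide as a block, 2 with the replicate block and 0 with both. Leaving out 1 array at a time gave 0 to 1 members after 5-aza-dC and for 5-aza-dC in control clones, and leaving out 1 clone gave 0 to 2 over all clones (0 without control clone 1, 2 without knockdown clone 2). The called leave-outs of single arrays were those without treated knockdown clone 2 and without mock control clone 3, in which slide and group cannot be told apart. The number of all probes called also moved over the alternatives. It ran from 0 to 7727 after 5-aza-dC, from 0 to 8619 for 5-aza-dC in control clones and from 17 to 748 in knockdown clones. The counts of members are therefore not read as a result about the members.

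Directions turned in small differences. PDGFRB after 5-aza-dC in control clones was -0.15 with slide as a block and on slide 2 alone, and -0.35 on all 12 arrays with slide as a block. The difference of responses turned for CSF1R with normexp (0.15) and slide as a block (0.33), and for PDGFC with slide as a block (-0.088). Leaving out 1 array, it ran from -1.41 to 0.60 for CSF1R, from -0.13 to 0.30 for PDGFC and from -0.45 to 0.97 for KIT. TET1 after 5-aza-dC was 0.092 on slide 2 alone, with 1 knockdown array. The cause was not tested. Array-median scaling moved the median of all probes to -0.23 for 5-aza-dC in control and -0.35 in knockdown clones, and turned no member named here.

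Over all probes, 34 were called in mock culture (4 to 127 over the alternatives), 24 after 5-aza-dC (0 to 7727), 1286 for 5-aza-dC in control clones (0 to 8619), 519 in knockdown clones (17 to 748) and 10 for the difference of responses (2 to 14). PDGFRB, CSF1R, PDGFA and PLAT could not be fitted where their probe missed the background filter, as in the fits that need every array well above background. Signals near background limit PDGFRA, PDGFA, PDGFB and PDGFD.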
